A study of Mus musculus with 8 samples.

Results

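The polyamine metabolism genes followed here are Odc1, Amd1, Amd2, Srm, Sms, Smox, Sat1, Paox, Oaz1 and Azin1, 10 genes listed by name, of which 9 have a row among the 30743 genes of the table. Amd2 has no row. The list was chosen with results of these data known, since Amd1 and Smox were selected on their fold changes, which were among the steepest falls in mice with an induced Akt1 transgene. Values of the comparison that chose them are therefore given as a description, without p-values.

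RNA-seq of polyadenylated RNA was carried out on gastrocnemius muscle, a calf muscle made mostly of fast-twitch fibres in the mouse. The DTG group held 4 double transgenic mice, 1256[3Emut]Mck-rtTA+ and TRE-myrAkt1+, in which part of the muscle creatine kinase promoter drives the activator rtTA, and rtTA bound by doxycycline switches on a membrane-targeted, constitutively active Akt1. The MckrtTA group held 4 mice with the Mck-rtTA transgene alone. The protocol calls the controls littermates of the DTG mice, but the labels do not say which mice shared a litter. All 8 were males aged 4 months of the strain labelled Myo L8, drank doxycycline at 0.5 mg/ml for 2 weeks and were starved overnight before the muscles of both legs were taken. Each library came from 1 mouse and is named by its number. The Mck promoter limits rtTA to muscle fibres, while the RNA came from all cells of the muscle.

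Akt1, the gene of the transgene, had a signal of 44224, 63102, 37986 and 69301 in DTG mice 283, 282, 306 and 253, against 4955, 4047, 5054 and 4433 in MckrtTA mice 255, 280, 281 and 307. Every DTG mouse was above every MckrtTA mouse. Signal is the estimated number of reads of a gene after the authors had set the 75th percentile of every library to 1000, with no division by gene length. The DTG libraries held an estimated 46.0 to 54.0 M reads and the MckrtTA libraries 45.6 to 58.6 M, and the 9 genes rested on 172 reads or more in every library. Summed signal was 70.4 ± 13.8 M in DTG libraries, against 134 ± 1.98 M in MckrtTA libraries (SD, n = 4 each). Muscle fibre markers (Ckm, Acta1, Actn3 and 4 myosin heavy chains) were abundant in all libraries. Their sum was 3.47, 3.76, 4.38 and 7.15 M in DTG mice 283, 282, 306 and 253, against 13.3 to 15.2 M in MckrtTA mice.

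Polyamines are small positively charged molecules that bind RNA and DNA and are needed for translation and growth. Ornithine decarboxylase makes putrescine from ornithine, and spermidine synthase and spermine synthase lengthen it with aminopropyl groups, which come from S-adenosylmethionine after its decarboxylation by AMD1. Spermine oxidase, the acetyltransferase SAT1 and the acetylpolyamine oxidase PAOX run the chain backwards. Antizyme binds ornithine decarboxylase and sends it to the proteasome, and antizyme inhibitor, an inactive relative of the decarboxylase, takes antizyme away. In skeletal muscle the pathway is known for shifts with muscle mass.

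The row of Amd1 spans the Amd1 locus on chromosome 10 of mm10 from 40287458 to 40302188, but its transcript accession is now given by RefSeq to Amd2, a copy elsewhere on chromosome 10 that has no row. The GENCODE transcripts of Amd1 (3204 bases) and Amd2 (3218 bases) were 99.1% identical, and 86.1% of the 50-base windows of Amd1 also occurred in Amd2. Their open reading frames of 1005 bases differed at 1 position (G796C, counted from the A of the start codon, Amd1 base first). Bases 771 to 821 of both frames are shown because reads of this part tell the copies apart only at the base in capitals.
Amd1: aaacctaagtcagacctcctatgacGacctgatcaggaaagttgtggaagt
Amd2: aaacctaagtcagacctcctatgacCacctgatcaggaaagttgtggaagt
Most single reads of 50 bases cannot tell the copies apart, so every Amd1 value below may include reads of Amd2.

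RefSeq (GRCm38.p6, the mm10 assembly) gave promoters for 8 of the 10 genes, Srm and Azin1 being unmatched. The 120 bases before the start of Amd1 (chr10:40302189-40302308, minus strand) and of Smox (chr2:131491742-131491861, plus strand) are shown because these genes had the lowest fold changes of the list.
Amd1: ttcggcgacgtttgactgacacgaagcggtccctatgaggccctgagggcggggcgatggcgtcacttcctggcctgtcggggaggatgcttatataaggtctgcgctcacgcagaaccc
Smox: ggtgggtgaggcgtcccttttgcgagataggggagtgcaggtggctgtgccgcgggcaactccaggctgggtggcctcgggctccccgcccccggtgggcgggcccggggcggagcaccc
The E-box CACGTG, a palindrome that MYC and MAX bind, was searched in the 250 bases before each start. It occurred in 6.02% of 32851 RefSeq promoters, a set that leaves out 1 chromosome. Among the 10 promoters of these 8 genes it occurred in 1, before an Sms start that lies upstream of the span of the Sms row. The stretch that holds it (chrX:157492451-157492510, minus strand) reads as follows, with the E-box in capitals.
Sms: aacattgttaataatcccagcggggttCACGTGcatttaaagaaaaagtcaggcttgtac
CCAAT, searched on both strands, occurred before that Sms start, Oaz1 and Amd2 (33.9% of promoters), and TATAAA, also searched on both strands, before none (12.4% of promoters). None of these motifs overlapped. A missing match says only that the letters are not in the window.

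Among the biosynthetic enzymes, Amd1 showed the steepest difference. Its signal was 13081, 12862, 11900 and 13642 in DTG mice 283, 282, 306 and 253, against 196417, 239004, 346168 and 224716 in MckrtTA mice 255, 280, 281 and 307. All DTG mice lay in a narrow band far below the lowest MckrtTA mouse, and the MckrtTA mice spread more widely. The group means were 12871 ± 726 in DTG and 251576 ± 65497 in MckrtTA (SD, n = 4 each), 19.5 times as high in MckrtTA, with a log2 fold change of -4.26 (standard error 0.17). Amd1 took 0.0187% ± 0.00287 of all signal in DTG and 0.187% ± 0.0468 in MckrtTA libraries (SD, n = 4 each). In bulk muscle, fewer cells of a type and less RNA per cell cannot be told apart, for this gene or any below.

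Odc1, on chromosome 12 from 17544873 to 17551502, encodes ornithine decarboxylase, the entry enzyme of the pathway. Its signal was 25012, 26827, 22842 and 80020 in DTG mice 283, 282, 306 and 253, against 20122, 23592, 22132 and 23724 in MckrtTA mice 255, 280, 281 and 307. The groups overlapped, and DTG mouse 253 alone stood far above the rest. The log2 fold change was 0.57 (standard error 0.35), and 0.15 without mouse 253.

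The synthases differed in opposite directions. Srm, spermidine synthase on chromosome 4 from 148591513 to 148594619, had a signal of 1163, 1251, 1030 and 1972 in DTG mice 283, 282, 306 and 253, against 652, 616, 605 and 679 in MckrtTA mice 255, 280, 281 and 307. Every DTG mouse was higher, mouse 253 most of all, and the log2 fold change was 1.03 (standard error 0.19). Sms, spermine synthase on the X chromosome from 157443954 to 157492046, had a signal of 6356, 8238, 7534 and 9400 in the DTG mice in the same order, against 19474, 23082, 24466 and 21667 in the MckrtTA mice. Every DTG mouse was lower, and the log2 fold change was -1.50 (standard error 0.13). The ratio of Sms to Srm within a library, which does not move with the scale of the library, was 6.03 ± 1.14 in DTG and 34.9 ± 4.90 in MckrtTA (SD, n = 4 each).

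Among the enzymes that run the chain backwards, Smox, spermine oxidase on chromosome 2 from 131491862 to 131525183, turns spermine directly into spermidine and releases hydrogen peroxide. Its signal was 2658, 2438, 3062 and 9107 in DTG mice 283, 282, 306 and 253, against 24707, 32741, 47625 and 30395 in MckrtTA mice 255, 280, 281 and 307. The groups did not overlap, and mouse 253 was the DTG mouse nearest to the MckrtTA mice. The MckrtTA mean was 7.85 times the DTG mean, with a log2 fold change of -3.16 (standard error 0.40), and without mouse 253 the log2 value was -3.60.

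Sat1 and Paox form the other route, in which an acetyl group is added before oxidation. Sat1, on the X chromosome from 155213139 to 155216409, had a signal of 5898, 5332, 5979 and 4264 in DTG mice 283, 282, 306 and 253, against 1510, 1343, 1473 and 1323 in MckrtTA mice 255, 280, 281 and 307. All DTG mice were higher, with mouse 253 the lowest of them, and the DTG mean was 3.80 times the MckrtTA mean (log2 fold change 1.91, standard error 0.12). Paox, on chromosome 7 from 140115899 to 140134334, had a signal of 719, 608, 623 and 352 in the DTG mice in the same order, against 593, 589, 576 and 510 in the MckrtTA mice. The groups overlapped, with a log2 fold change of -0.02 (standard error 0.21), and mouse 253 was the lowest of all 8. Within libraries, Smox over Sat1 was 0.451, 0.457, 0.512 and 2.14 in DTG mice 283, 282, 306 and 253. Its mean was 0.889 ± 0.832 in DTG and 24.0 ± 6.56 in MckrtTA (SD, n = 4 each). Sat1 over Paox was 9.67 ± 1.73 in DTG and 2.49 ± 0.144 in MckrtTA (SD, n = 4 each).

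The regulators of ornithine decarboxylase come next, neither of them called. Oaz1, antizyme, on chromosome 10 from 80826656 to 80829290, had a signal of 21615, 20838, 21336 and 24372 in DTG mice 283, 282, 306 and 253, against 42120, 44631, 44144 and 44329 in MckrtTA mice 255, 280, 281 and 307. Both groups were tight and far from each other, with a log2 fold change of -0.99 (standard error 0.09). Azin1, antizyme inhibitor, on chromosome 15 from 38487430 to 38519266, had a signal of 10335, 13842, 9717 and 45029 in the DTG mice in the same order, against 6062, 5620, 7136 and 6125 in the MckrtTA mice. All DTG mice were higher, but mouse 253 was at 3.99 times the mean of the other DTG mice. The log2 fold change was 1.35 (standard error 0.43), and 0.84 without mouse 253.

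**Figure D1:**
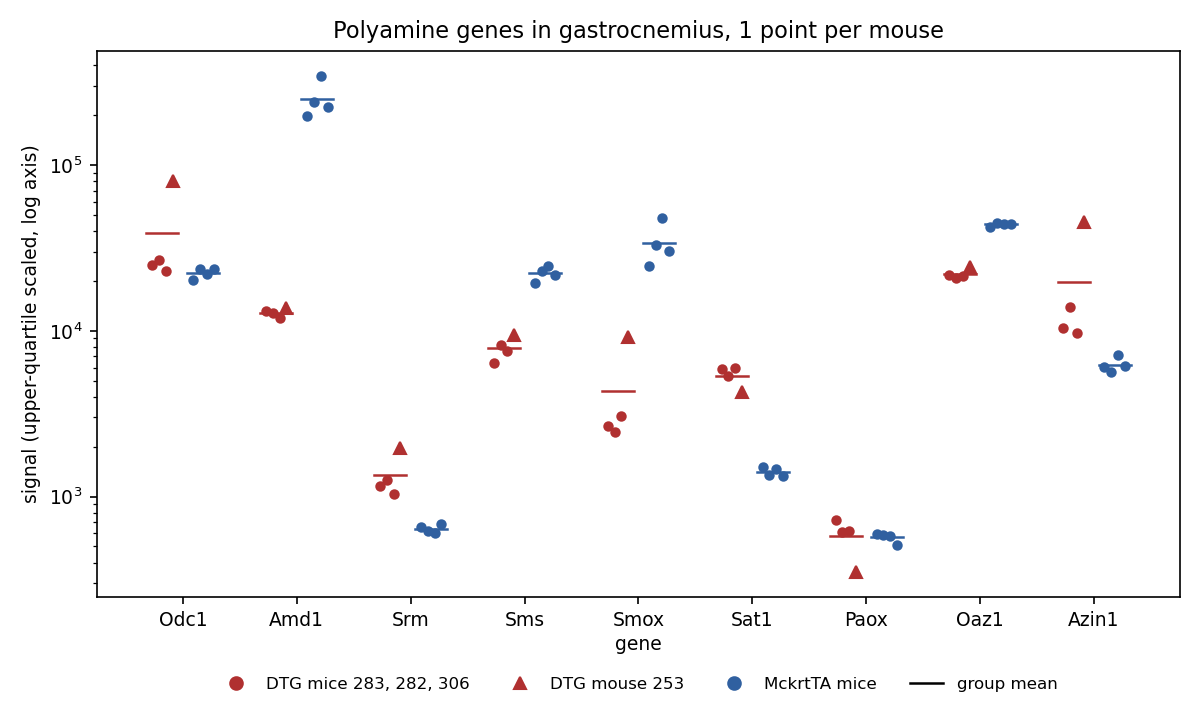
Signal of the 9 polyamine genes with a row (log axis), 1 point per mouse, DTG mice left of MckrtTA mice for each gene, with lines at the group means and a triangle for DTG mouse 253. Amd1, Sms, Smox and Oaz1 lie lower in all 4 DTG mice, Srm, Sat1 and Azin1 lie higher, and mouse 253 stands off in Odc1, Smox and Azin1.

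A gene was called when limma gave a Benjamini-Hochberg adjusted p under 0.005 over all 15073 genes tested and a fold change of 2 or more. All 9 genes passed the minimum signal. Srm and Sat1 were called higher in DTG, against 14.6% of tested genes, and Amd1, Sms and Smox were called lower, against 16% of tested genes. Odc1, Paox, Oaz1 and Azin1 were not called. Nothing is read from these counts, since the comparison was used to choose the genes. By the log2 fold change that the call uses, Srm (1.03) lay just inside the fold threshold and Oaz1 (-0.99) just outside it. Groups did not overlap, with DTG higher, for Srm, Sat1 and Azin1 (22.2% of tested genes) and, with DTG lower, for Amd1, Sms, Smox and Oaz1 (40.4% of tested genes). The median log2 fold change was -0.02 over the 9 genes and -0.26 over all tested genes.

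Divided by transcript length, the order of the genes differed between the groups. In DTG mice the means in signal per kilobase were 21112 for Oaz1, 17516 for Odc1, 4620 for Sat1, 4051 for Azin1, 4017 for Amd1, 2121 for Sms, 1902 for Smox, 1012 for Srm and 124 for Paox. Neighbours in this order overlapped between mice except Odc1 and Sat1, Amd1 and Sms, and Srm and Paox. In MckrtTA mice Amd1 came first with 78520 per kilobase, before Oaz1 with 41960, Smox with 14920, Odc1 with 10142 and Sms with 5965. Azin1 with 1280, Sat1 with 1215, Srm with 477 and Paox with 122 closed the order. There only Azin1 and Sat1, among neighbours, overlapped between mice. The lengths are those of 1 GENCODE transcript a gene, which need not be the one expressed in muscle.

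Ratios within a library compare these genes with no scale at all. Odc1 over Oaz1, the decarboxylase against its antizyme, was 1.16, 1.29, 1.07 and 3.28 in DTG mice 283, 282, 306 and 253, against 0.478, 0.529, 0.501 and 0.535 in MckrtTA mice 255, 280, 281 and 307. Azin1 over Oaz1 was 0.478, 0.664, 0.455 and 1.85 in the DTG mice, against 0.144, 0.126, 0.162 and 0.138 in the MckrtTA mice. Neither ratio overlapped between the groups, and both were highest in mouse 253. Amd1 over Odc1 was 0.523, 0.479, 0.521 and 0.170 in the DTG mice, against 9.76, 10.1, 15.6 and 9.47 in the MckrtTA mice. Amd1 over Smox, the genes with the lowest fold changes, was 3.90 ± 1.70 in DTG and 7.48 ± 0.319 in MckrtTA (SD, n = 4 each). Oaz1 over its relative Oaz2 was 2.27 ± 0.244 in DTG and 2.33 ± 0.129 in MckrtTA (SD, n = 4 each), and these overlapped.

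**Figure D2:**
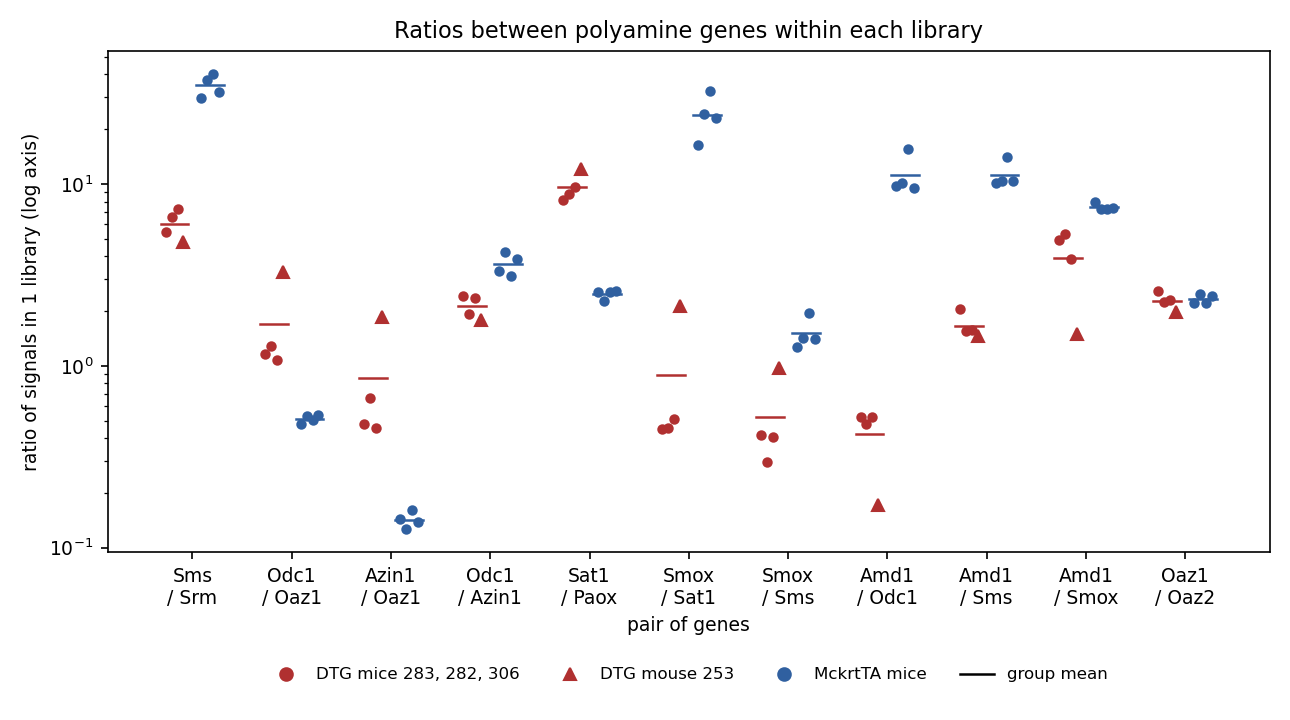
Ratio of the signals of 2 genes in the same library (log axis), 1 point per mouse, DTG mice left of MckrtTA mice, with lines at the group means and a triangle for DTG mouse 253. Only Oaz1 over Oaz2 overlaps between the groups among the 11 ratios drawn, and Odc1 over Oaz1 and Azin1 over Oaz1 are highest in mouse 253. Nothing is read from how many ratios overlap, as no share over other pairs of genes was computed.

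DTG mouse 253 differed from the other DTG mice in part of the pathway. It was 3.99 times the mean of the other 3 for Azin1, 3.35 times for Smox, 3.21 times for Odc1 and 1.72 times for Srm. For Amd1, Oaz1 and Sms it was 1.08, 1.15 and 1.27 times that mean, and for Sat1 and Paox it was 0.743 and 0.542 times. These ratios depend on the scale, as summed signal was 90.9 M in mouse 253 and 60.6 to 66.4 M in the other DTG mice. With equal totals mouse 253 was the lowest DTG mouse for Amd1 (14498 against 17300 to 20840) and Oaz1 (25901 against 31018.5 to 34438). Sms was lowest there too (9989 against 10127 to 12482), while Odc1, Smox, Azin1 and Srm stayed highest in mouse 253. Of all tested genes, 99.5% had a lower log2 difference between mouse 253 and the other DTG mice than Azin1 had, 99.2% than Smox and 99.1% than Odc1, while the median tested gene had 0.10. Mouse 253 also stood apart in sums of markers of other cells and fibres. Regenerating fibre markers (5 of 5 called higher in DTG) summed to 50527, 69935, 90388 and 13453 in DTG mice 283, 282, 306 and 253, against 1803 to 2375 in MckrtTA mice. Leukocyte and macrophage markers (7 of 7 called higher) summed to 157911, 130867, 105305 and 43206 in the DTG mice in the same order, against 3461 to 4344 in MckrtTA mice. Fibroblast markers summed to 128124 in mouse 253 and to 397551 to 587196 in the other DTG mice, and dividing cell markers to 1980 in mouse 253 and to 7462 to 10670 in the others. Mouse 253 thus had the lowest sums of these 4 lists and the highest Akt1 and muscle fibre sum of the DTG group. Single markers of these lists were also lowest there among DTG mice, except Myod1, Itgb2 and Pdgfra. Myod1 was 5699 against 3273 to 4340, Itgb2 5524.5 against 4733 to 4972, and Pdgfra 7123 against 6418.5 to 9603. Myog (6091 against 6485 to 9846) and Dcn (33284 against 33592 to 36425) were only a little lower in mouse 253. Of the muscle fibre markers, Ckm, Acta1, Myh4 and Actn3 were highest in mouse 253 among DTG mice. Myh2 (83700 against 57685 to 110868) and Myh7 (17060 against 9860 to 21179) were not, and Myh1 was lowest there (151352 against 165538 to 174662).

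**Figure D3:**
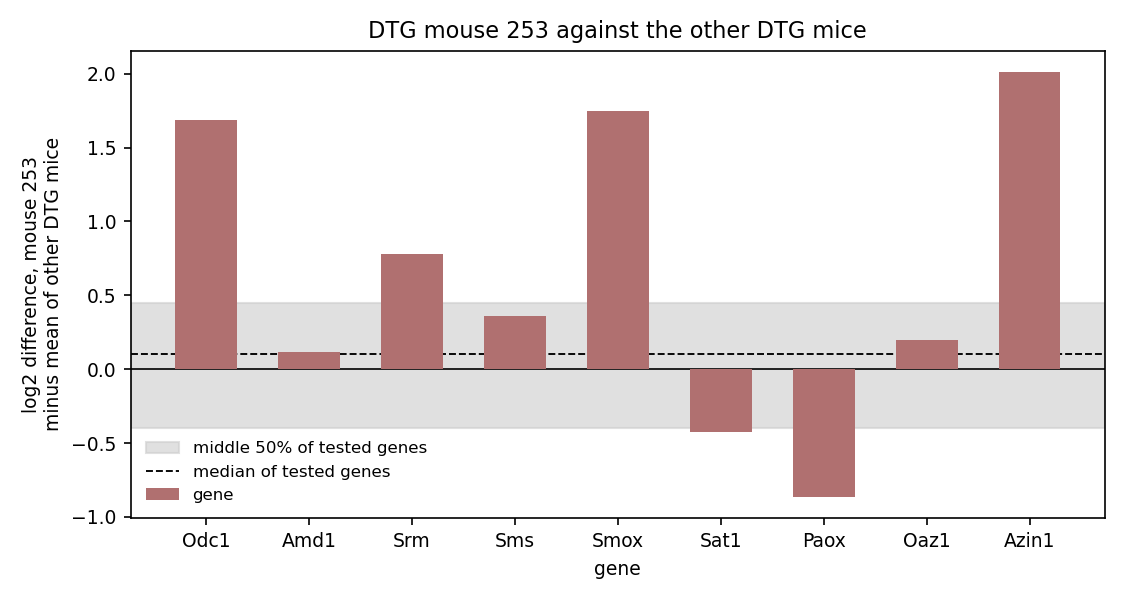
Difference in log2(signal + 10) between DTG mouse 253 and the mean of DTG mice 283, 282 and 306, 1 bar per gene, with the middle 50% of the 15073 tested genes as a grey band and their median as a dashed line. Azin1 (2.01), Smox (1.75) and Odc1 (1.69) reach far above the band and Paox (-0.86) lies below it.

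Markers of other cells moved with the group comparison as well. Fibroblast markers were called higher in 4 of 5 cases, with sums of 128124 to 587196 in DTG and 71498 to 87834 in MckrtTA mice, and dividing cell markers in 4 of 4, with sums of 1980 to 10670 in DTG and 55.7 to 162 in MckrtTA mice. The remaining fibroblast marker, Dcn, was not called and went the other way, at 33284 to 36425 in DTG and 43693.5 to 55339 in MckrtTA mice. Muscle fibre markers were called lower in 3 of 7 cases, Schwann cell markers in 2 of 3 (sums of 2546 to 4502 in DTG and 6053 to 13747 in MckrtTA mice) and endothelial markers in 1 of 4 (16184 to 24088 in DTG and 24859 to 27602 in MckrtTA mice). No satellite cell marker was called (0 of 4, sums of 2122 to 4315 in DTG and 2666 to 3154 in MckrtTA mice). Nor was any adipocyte marker (0 of 3, 192 to 1026 in DTG and 332 to 2244 in MckrtTA mice) or the erythroid marker (0 of 1, 562 to 1050 in DTG and 1307 to 4149 in MckrtTA mice). Of the T and B cell markers 1 of 4 was tested and not called, their sum was 28.6 to 87.7 in DTG and 11.5 to 51.0 in MckrtTA mice, and Cd3d was at 0 in every MckrtTA library. The part of these cells in the values of the polyamine genes was not tested.

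Among the other scales of the libraries, only equal totals changed which polyamine genes were called. Median of ratios and trimmed mean of log ratios called Srm and Sat1 higher and Amd1, Sms and Smox lower, the same as the deposited scale. Over all genes, 2207 were called higher and 2405 lower on the deposited scale, 4640 higher and 301 lower with equal totals, 2728 higher and 1261 lower with a median of ratios, and 2700 higher and 1305 lower with a trimmed mean of log ratios. The median log2 fold change of all genes moved by 0.92, 0.29 and 0.28 under these, in that order. With equal totals, Odc1 (1.52) and Azin1 (2.30) were called higher beside Srm (1.97) and Sat1 (2.85), and Sms (-0.55) was no longer called. Oaz1 was at -0.04, Paox at 0.91, Amd1 at -3.31 and Smox at -2.21 there. Leaving out mouse 253 ended the call of Srm (0.83) and added that of Oaz1 (-1.04), and leaving out MckrtTA mouse 255 also added Oaz1 (-1.01). Paox changed sign with the scale and with the mice left out, between -0.14 without DTG mouse 283 and 0.19 without mouse 253.

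**Figure D4:**
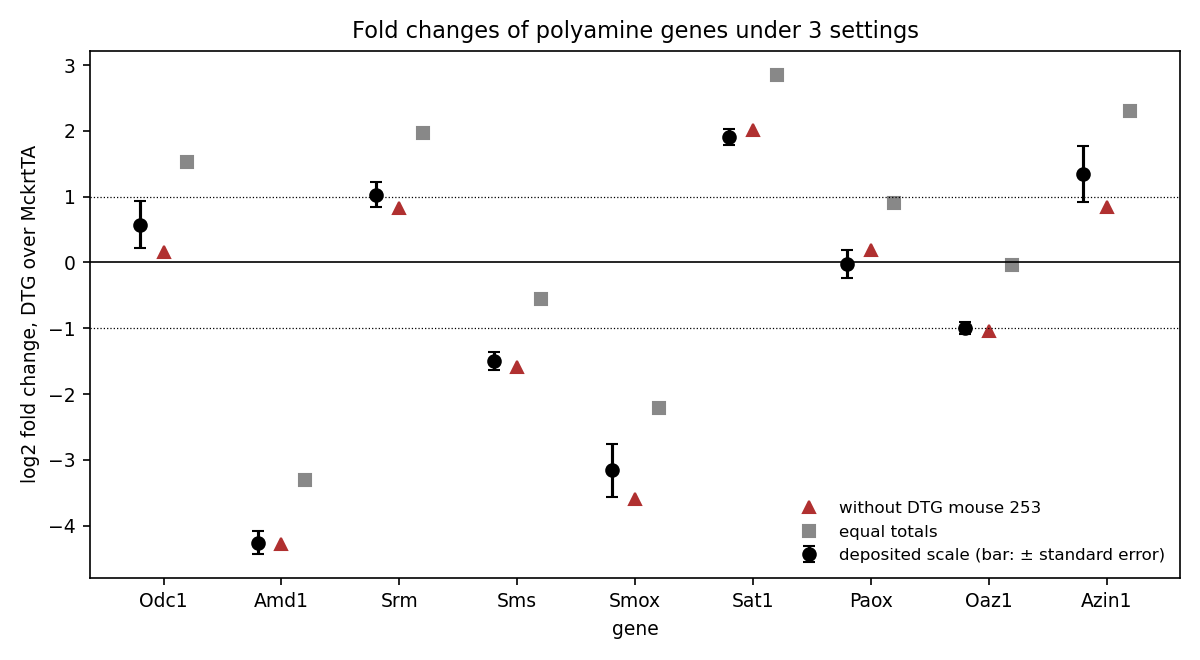
Log2 fold change of DTG over MckrtTA for the 9 polyamine genes on the deposited scale (black, bars are standard errors), without DTG mouse 253 (red) and with equal totals (grey), with dotted lines at a fold of 2. With equal totals every gene moves up by about the 0.92 that all genes shift, Oaz1 to -0.04, Amd1 to -3.31 and Smox to -2.21.

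The libraries ran on 2 lanes with 2 mice of either group on each, and the lane did not choose the genes, so it could be tested. None of the 9 genes differed between lane 8 and lane 1 in limma with group in the model (adjusted p = 0.964 to 0.996), and 0 of the 15073 tested genes did at an adjusted p under 0.05 (0%). At an unadjusted p under 0.05 there were 452 genes and 0 of the 9. Within lane 1, which holds mouse 253, and within lane 8, log2 fold changes were -4.29 and -4.23 for Amd1, -2.80 and -3.52 for Smox, -1.50 and -1.50 for Sms, -0.91 and -1.08 for Oaz1, 1.74 and 2.07 for Sat1, 1.26 and 0.80 for Srm, 1.71 and 0.98 for Azin1, 1.08 and 0.07 for Odc1, and -0.21 and 0.16 for Paox. Direction was the same in both lanes except for Paox.

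Genes connected with the pathway were taken from 7 lists, and 62 of the 73 with a row were tested. Of these, 9 were called higher in DTG (14.5%, against 14.6% of all tested genes), 11 lower (17.7%, against 16%) and 42 neither, with a median log2 fold change of -0.42 against -0.26 over all tested genes. Both shares were near those of all genes, so nothing particular to the lists is read from them, and the counts of each list below stand beside the same 14.6% and 16%. With equal totals 16 were called higher (25.8%, against 30.8% of all tested genes) and 0 lower (0%, against 2.00%). Median of ratios and trimmed mean of log ratios each left 5 called lower, Mat2b, Mtrr, Dohh, Atp13a5, Prdx3 and Aldh1a1 losing their call under both. The p-values below are from limma, adjusted over all 15073 genes, with 4 mice a group.

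In the supply of ornithine and arginine, 3 of 8 tested genes were higher and 1 was lower. Arg1, the arginase that makes ornithine in the urea cycle and in macrophages, had a signal of 782, 589, 815 and 5889 in DTG mice 283, 282, 306 and 253, against 4.64, 2.25, 0 and 8.90 in MckrtTA mice 255, 280, 281 and 307 (adjusted p = 2.7e-05). The MckrtTA values are worth 3 reads or fewer, so no fold change is given, and mouse 253 was again far above the other DTG mice. Gatm, which uses arginine and glycine for the first step of creatine synthesis, averaged 6825 ± 2908 in DTG and 822 ± 273 in MckrtTA mice (SD, n = 4 each), a log2 fold change of 2.95 (adjusted p = 0.000115). Ass1, argininosuccinate synthase, rose by a log2 value of 1.36 (adjusted p = 0.000182). Oat, ornithine aminotransferase, which uses ornithine outside the polyamine path, averaged 11241 ± 2479 in DTG and 29874 ± 2509 in MckrtTA mice (log2 fold change -1.43, adjusted p = 3.5e-05). Slc7a1, an arginine carrier outside the naming rule, was chosen after its values were seen, and had 1302, 1376, 1015 and 3025 in the DTG mice in the same order, against 571 to 742 in MckrtTA mice. It missed the threshold (log2 fold change 1.19, adjusted p = 0.0052). Other carriers of this list outside the rule went the other way and stayed under the fold threshold. They were Slc7a2 (log2 fold change -0.83, adjusted p = 0.000349) and Slc25a15 (-0.86, adjusted p = 0.000265).

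Supply of S-adenosylmethionine and salvage of methylthioadenosine, the by-product of both synthases, had 1 of 14 tested genes higher and 3 lower. Mat2b, the regulatory subunit of methionine adenosyltransferase, fell (log2 fold change -1.12, adjusted p = 2.8e-05), as did the salvage enzyme Adi1 (-1.62, adjusted p = 2.8e-05) and Mtrr, methionine synthase reductase (-1.05, adjusted p = 0.000328). Mtrr was not called without DTG mouse 283 (-0.96). Gamt, which spends S-adenosylmethionine in the last step of creatine synthesis, averaged 2881 ± 332 in DTG and 990.5 ± 187 in MckrtTA mice (SD, n = 4 each; log2 fold change 1.54, adjusted p = 2.2e-05). The salvage enzyme Apip, at -0.91 (adjusted p = 6.0e-05), stayed under the fold threshold and had the opposite sign with equal totals (0.04).

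Spermidine also serves to make hypusine, a modified lysine of the translation factor eIF5A. Dohh, the hydroxylase of its last step, fell (1064 ± 54.5 in DTG and 2386 ± 223 in MckrtTA mice, SD, n = 4 each; log2 fold change -1.15, adjusted p = 1.1e-05), the only call among 4 tested. Dhps, the synthase of the first step, had -0.80 (adjusted p = 0.00166), Eif5a -0.25 (adjusted p = 0.101) and Eif5a2 0.71 (adjusted p = 0.00257). With equal totals Dhps (0.14) and Eif5a (0.70) had the opposite sign, Dohh (-0.21) was not called and Eif5a2 (1.62, adjusted p = 9.25e-05) was called higher.

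Among relatives of the listed genes none of 3 tested was called. The antizyme Oaz2 averaged 9848 ± 1720 in DTG and 18850.1 ± 793 in MckrtTA mice (SD, n = 4 each; log2 fold change -0.95, adjusted p = 0.000116) and was called without DTG mouse 253 (-1.06). With equal totals its log2 fold change was -0.0015 (adjusted p = 0.983). Adc, an older symbol for antizyme inhibitor 2, had 0.26 (adjusted p = 0.286). Sat2, a relative of Sat1, had -0.20 (adjusted p = 0.275), with the opposite sign with equal totals (0.72).

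Transport genes had 1 of 10 tested higher and 2 lower. Slc47a1, an exporter of organic cations, fell (log2 fold change -1.86, adjusted p = 3.8e-05), as did Atp13a5 (-1.16, adjusted p = 0.000291), a P5B-type ATPase. Atp13a4, another P5B-type ATPase, had 116, 84.2, 110 and 26.9 in DTG mice 283, 282, 306 and 253, against 0, 2.25, 0 and 0 in MckrtTA mice (adjusted p = 0.000122), too few reads in MckrtTA for a fold. Gpc1, a heparan sulfate proteoglycan implicated in polyamine uptake, had -0.93 (adjusted p = 2.5e-05) and 0.02 with equal totals.

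Transcription factors known to act on polyamine genes had 2 of 10 tested higher and 2 lower. Myc, an activator of Odc1, had a signal of 976, 1433, 1217 and 1548 in DTG mice 283, 282, 306 and 253, against 392, 330, 344 and 421 in MckrtTA mice 255, 280, 281 and 307. Every DTG mouse was above every MckrtTA mouse (log2 fold change 1.76, adjusted p = 1.8e-05). Mxi1, which competes with MYC for MAX, fell (-1.61, adjusted p = 5.1e-06). Mxd3 had 16.8 to 142 in DTG and 0 to 2.87 in MckrtTA mice (adjusted p = 0.000743).

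Disposal of the peroxide and aldehydes that polyamine oxidases release had 2 of 13 tested genes higher and 2 lower. Gpx1, glutathione peroxidase, rose (log2 fold change 1.24, adjusted p = 1.2e-05), and so did Aldh9a1, an aldehyde dehydrogenase of the GABA route from putrescine (1.36, adjusted p = 0.000539). Prdx3, the mitochondrial peroxiredoxin (-1.22, adjusted p = 0.000129), and Aldh1a1, retinal dehydrogenase (-1.48, adjusted p = 0.00114), fell. Gpx4 (-0.84, adjusted p = 5.0e-05), which reduces lipid peroxides, Prdx5 (-0.81, adjusted p = 3.9e-05), another peroxiredoxin, and Aldh7a1 (-0.59, adjusted p = 0.000105), an aldehyde dehydrogenase of lysine breakdown, stayed under the fold threshold, and all 3 had the opposite sign with equal totals (0.11, 0.14 and 0.35).

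**Figure D5:**
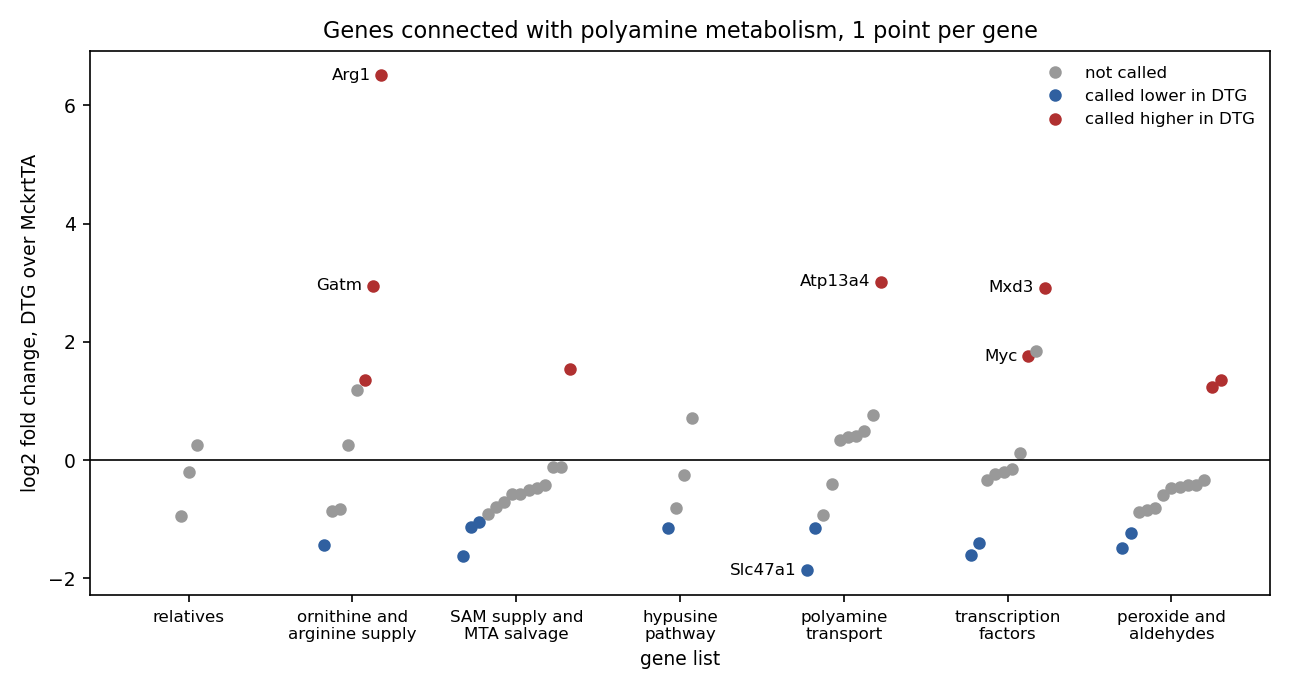
Log2 fold change of DTG over MckrtTA for the 62 tested genes of the 7 connected lists, 1 point per gene, red where called higher in DTG, blue where called lower and grey where not called. Arg1, Gatm, Atp13a4, Mxd3 and Myc head the 9 called higher; the points of Arg1, Atp13a4 and Mxd3 depend on the 10 added before the logarithm.

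Profiles over the 8 libraries were compared by the root mean square difference of centred log2(signal + 10). Amd1 and Smox were 0.75 apart on this measure, although both were lower in DTG. The 5 genes nearest to Amd1 were 2310065F04Rik (0.45), Htra4 (0.45), Cdh4 (0.47), Klhl33 (0.49) and Mylk4 (0.51), and those nearest to Smox were Nos1 (0.23), Hr (0.31), Gpcpd1 (0.36), Neto2 (0.37) and Phkg1 (0.37). Nos1, neuronal nitric oxide synthase, had 355, 317, 371 and 1129 in DTG mice 283, 282, 306 and 253. In MckrtTA mice it had 4409 to 4762. A high mouse 253 is part of the Smox profile by which Nos1 was picked, so nothing is read from it. Mylk4, a myosin light chain kinase, had 7159, 5680, 8323 and 14569 in the DTG mice in the same order, against 148291 to 284513 in MckrtTA mice. Within the list the nearest pairs were Sms with Oaz1 (0.29) and Odc1 with Srm (0.37).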

How the data were processed

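Gastrocnemius RNA of 8 mice was sequenced on 2 lanes as paired reads of 50 bases from a stranded library kit. The authors aligned reads to mm10 transcripts, estimated reads per gene with RSEM (BWA is also named in the submitters' processing notes) and deposited them as signal, scaled to an upper quartile of 1000 in each library. Groups were taken from the genotype in the labels and lanes from the run names. Only 86.8% to 88.1% of low values came out whole to within 0.1 read, so whole reads were not recovered and the count test of the study was not run. The minimum reads given are signal divided by the most frequent value above 0, taken as 1 read.

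Differences were estimated on log2(signal + 10) by limma 3.58.1 (R 4.3.3) with a variance trend. Genes had to reach 25 in at least 3 libraries, which left 15073. The fit was tested on simulated data. Tables were made in Python 3.11.15. P-values are for a difference between groups, set against the spread between mice after limma moderated it over all tested genes. The members and lists were chosen with earlier results of these data known. Named genes are all listed genes, Akt1, in each connected list the 4 tested genes with the smallest adjusted p and every called gene where 5 or fewer were called, and the 5 nearest profiles to Amd1 and to Smox. Members of the lists that are named outside this rule are said to be so. A gene that the rule takes is not reported here. Alternatives changed the amount added, the minimum, the scale, the lanes, the moderation and the thresholds and left out each mouse. Lengths and transcripts came from GENCODE M21 and promoters from RefSeq. Protein sequences were not used here.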

Additional observations from a re-analysis of the deposited data

Results flagged for a closer look

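Among the 9 genes, 3 had a DTG mouse far from the other DTG mice by Dixon's criterion at 95%, and it was mouse 253 each time. Odc1 had 80020 in mouse 253 against 22842 to 26827 in the other DTG mice. Smox had 9107 there against 2438 to 3062, and Azin1 had 45029 against 9717 to 13842. Chance flags about 1 in 20 groups. The criterion was met by 13.3% of tested genes in the DTG group and by 5.57% in the MckrtTA group. No MckrtTA mouse stood out for any of the 9 genes. Mouse 253 also had the lowest sums of regenerating fibre, leukocyte, fibroblast and dividing cell markers among DTG mice. Myod1, Itgb2 and Pdgfra were not lowest there, and the part of these marker sums in the 3 values was not tested.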

How the results depend on the processing

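No paired analysis was possible because the labels give the groups no shared numbers and do not say which mice were littermates. A fit with the lane as a covariate called the same 2 listed genes higher and 3 lower. Of the genes listed, 3 were called lower and 2 higher. With 1 lane, which leaves 2 mice a group, lane 1 called 0 either way. There only 0.358% of all tested genes were called higher and 0.0265% lower. Lane 8 called 1 higher (Sat1) and 4 lower (Amd1, Sms, Smox and Oaz1), against 16.6% higher and 16.9% lower of all tested genes. With 50 added before the logarithm 1 was called higher (12.5% of all tested genes) and with equal totals 4 (30.8%). Leaving out 1 mouse at a time gave 1 to 2 called higher (12.5% to 18.3% of all tested genes) and 3 to 4 called lower (13.9% to 19.1%). Of the connected genes, 11 were called lower and 9 higher. Equal totals gave 0 lower and 16 higher, and median of ratios and trimmed mean of log ratios 5 lower each. Lane 1 only gave 0 lower and 0 higher. An adjusted p under 0.05 with no fold minimum gave 34 lower and 14 higher. The share of all tested genes under that last rule was not computed, so nothing is read from these 34 and 14. Of all tested genes, median of ratios called 8.37% lower and trimmed mean of log ratios 8.66%. Lane 1 only called 0.0265% of all tested genes lower and 0.358% higher. Leaving out 1 mouse at a time gave 10 to 12 lower and 9 to 10 higher.

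Among named connected genes, signs turned only for some that were not called. With equal totals Sat2 had 0.72, Apip 0.036, Dhps 0.14, Eif5a 0.70, Gpc1 0.016, Gpx4 0.11, Prdx5 0.14 and Aldh7a1 0.35. Median of ratios gave Sat2 0.096 and Eif5a 0.049, trimmed mean of log ratios Sat2 0.082 and Eif5a 0.035, and lane 1 only Sat2 0.028. Equal totals move all genes by construction, and the cause of the other changes was not tested. The planned sum of Amd1 and Amd2 was not run, as Amd2 has no row. The precision rests on 4 mice a group, and the gene-level values do not separate Amd1 from Amd2.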
